A study of Mus musculus with 8 samples.

Results

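Apolipoproteins are the protein coat of the lipid particles of plasma, and the liver makes most of them. A very low density lipoprotein (VLDL) forms in the endoplasmic reticulum of the hepatocyte, where the microsomal triglyceride transfer protein loads lipid onto the nascent apolipoprotein B chain. High density lipoprotein (HDL) is built around apolipoproteins A-I and A-II, and the small C apolipoproteins and apolipoprotein E move between particles and set how fast lipases and receptors take them up. The 10 genes described here are Apoa1, Apoa2, Apoa4, Apoa5, Apob, Apoc1, Apoc2, Apoc3, Apoe and Mttp. They were chosen by gene symbol, and all 10 were found among the 24451 genes of the deposited table.

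The study asked what the loss of Brap, a ubiquitin ligase, does to the mouse liver, and the left lobe of 8 livers was sequenced. Brap LKO mice carry floxed Brap alleles (lox sites around exons 2 and 3) and Albumin-Cre, a transgene that drives Cre from the albumin promoter and so in hepatocytes, and Brap F/F mice carry the floxed alleles without Cre and are called wildtype in the labels. All mice were labelled C57BL/6, 18 wk old and fasted for 6 h, and each liver came from its own mouse (n = 4 per group). By animal number, Brap LKO replicates 1 to 3 and Brap F/F replicate 1 form a lower series. Brap LKO replicate 4 and Brap F/F replicates 2 to 4 form a higher one. Series and group are thus partly confounded, and the labels do not say what the series marks. Whole tissue was used, so cells without Cre activity contribute to every value, and fewer cells of a type and less RNA per cell cannot be told apart.

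The deposited values are reads per gene divided by a size factor for each liver, called normalized counts below. The reads on genes numbered 26280884 to 33313914 in a liver, and the 10 genes took 4.66% ± 0.126 (SD, n = 4) of them in Brap LKO and 4.49% ± 0.281 in Brap F/F. Brap itself stood at 3988 ± 242 and 4186 ± 179, groups that overlapped, and this gene total also counts reads from exons outside the floxed part, which do not check the deletion. Brap F/F replicates 2 and 3 stood apart from the other 6 livers on the first principal component of all genes (49.7 and 48.4, against values between -41.4 and 0.61), which held 37.2% of the variance. Hepatocyte markers were present at high levels in every liver, with a summed normalized count of 2731170 to 3445480 in Brap LKO and 3351420 to 4735740 in Brap F/F.

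Differences are given as log2 fold changes, Brap LKO minus Brap F/F, on log2(normalized count + 1), with the 95% confidence interval and the Benjamini-Hochberg adjusted p from limma over the 15352 genes tested. None of the 10 genes passed an adjusted p of 0.05 (0 of 10), where 0.769% of all genes tested did (0.664% as higher in Brap LKO). Unadjusted p-values under 0.05 were found for 2 of the 10, Apoa4 and Apoa2, against 15.8% of all genes tested. The groups overlapped for each of the 10, while 9.87% of all genes tested had groups that did not overlap. Apoa4, Apob, Apoc2 and Apoa1 had a log2 fold change above 0 and the other 6 one below 0, with a median over the 10 of -0.15. Over all genes tested the median was -0.010, and 52.0% lay below 0. With the same total per liver in place of the deposited scaling, all genes moved alike (their median by 0.16, that of the 10 genes to 0.0095), and relative to the median of all genes the median of the 10 was -0.14 under both scalings, with 4 genes above it and 6 below. Quantile normalization gave 6 above and 4 below, with a relative median of 0.019.

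**Figure D1:**
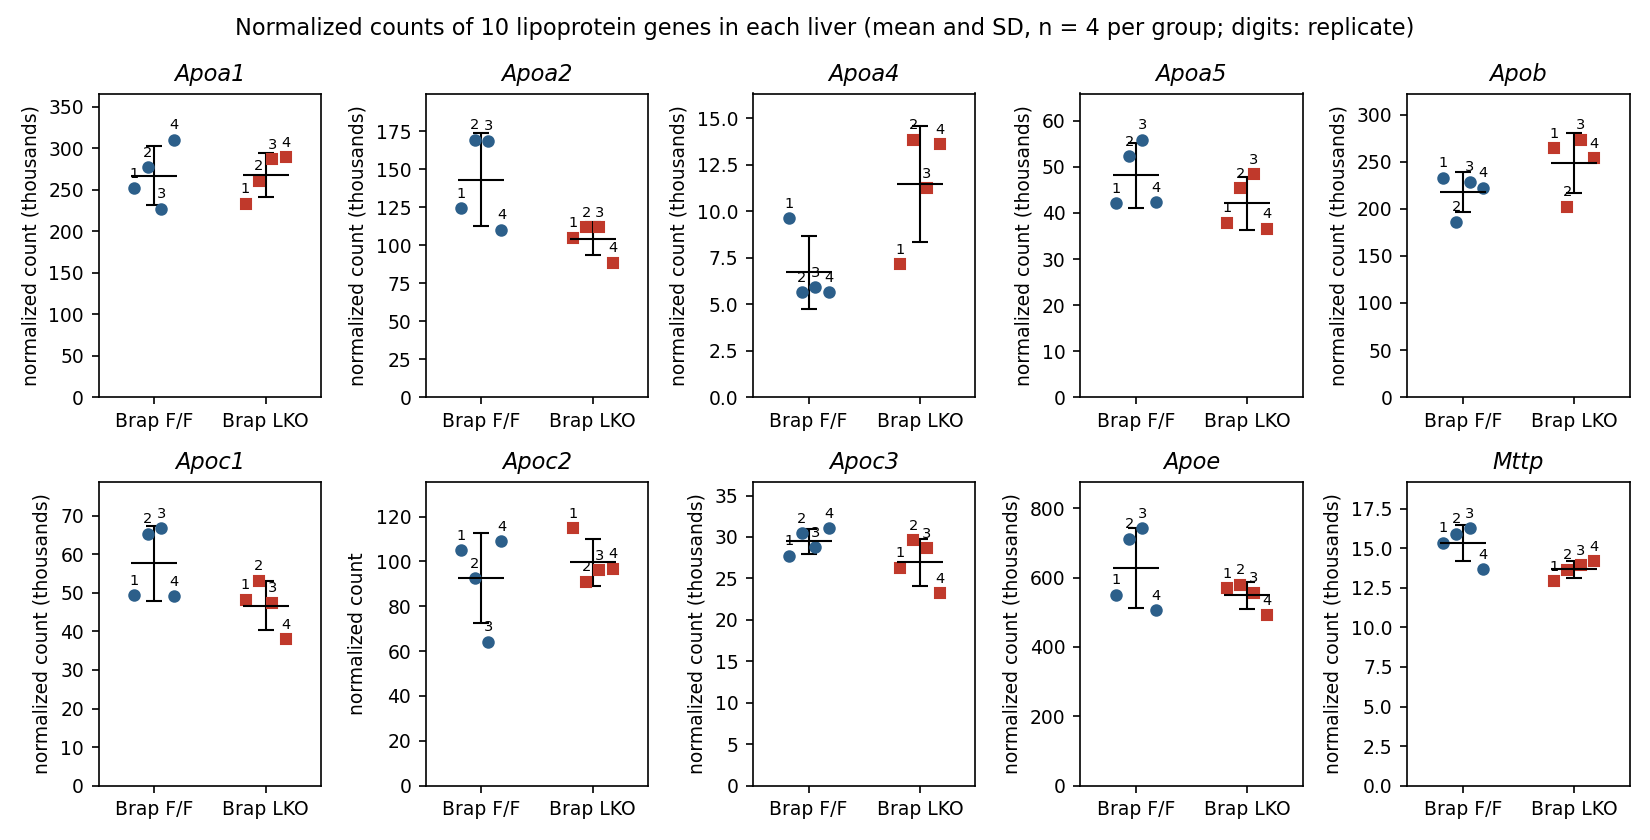
Each panel plots the normalized count of 1 gene (y axis, from 0) in the 4 Brap F/F livers (blue circles) and the 4 Brap LKO livers (red squares), with the replicate number above each point and the group mean and SD in black. The groups overlap in all 10 panels, and Brap F/F replicates 2 and 3 are the highest 2 of the 8 livers for Apoa2, Apoa5, Apoc1, Apoe and Mttp.

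The levels of the 10 genes differed widely, with Apoe highest and Apoc2 lowest. Per kilobase of the reference transcript, the mean normalized count in the Brap F/F livers was 445891 ± 82893 (SD, n = 4) for Apoe, the ligand by which remnant particles are taken up, 276095 ± 58694 for Apoa2 and 257375 ± 34322 for Apoa1. Apoc1 followed with 108310 ± 18258 per kilobase, then Apoc3 with 41609 ± 2139, Apoa5 with 19152 ± 2792 and Apob with 15618 ± 1533. Mttp (4983 ± 371), Apoa4 (3696 ± 1074) and Apoc2 (127 ± 27.8) closed the order. The value of Apoc2 is uncertain, because 646 of its 813 exon bases are shared on the same strand with another gene, as given below. Of the 9 pairs of neighbours in this order, Apoa2 with Apoa1 and Mttp with Apoa4 overlapped between livers, and the other 7 did not. Apoa5 (lowest liver 16725.8) and Apob (highest 16725.6) only just stayed apart. In the Brap LKO livers Apoa1 (258328 per kilobase) stood above Apoa2 (201029), Apob (17834) above Apoa5 (16729), and Apoa4 (6315) above Mttp (4450). When the length of all exons was used instead of 1 transcript, Mttp and Apoa4 exchanged places in the Brap F/F livers, so their order there is not settled by these values. With that length, Apoe (lowest 236978) overlapped Apoa2 (highest 315099) in the Brap F/F livers, and Apoa5 (lowest 16679) overlapped Apob (highest 16726).

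**Figure D2:**
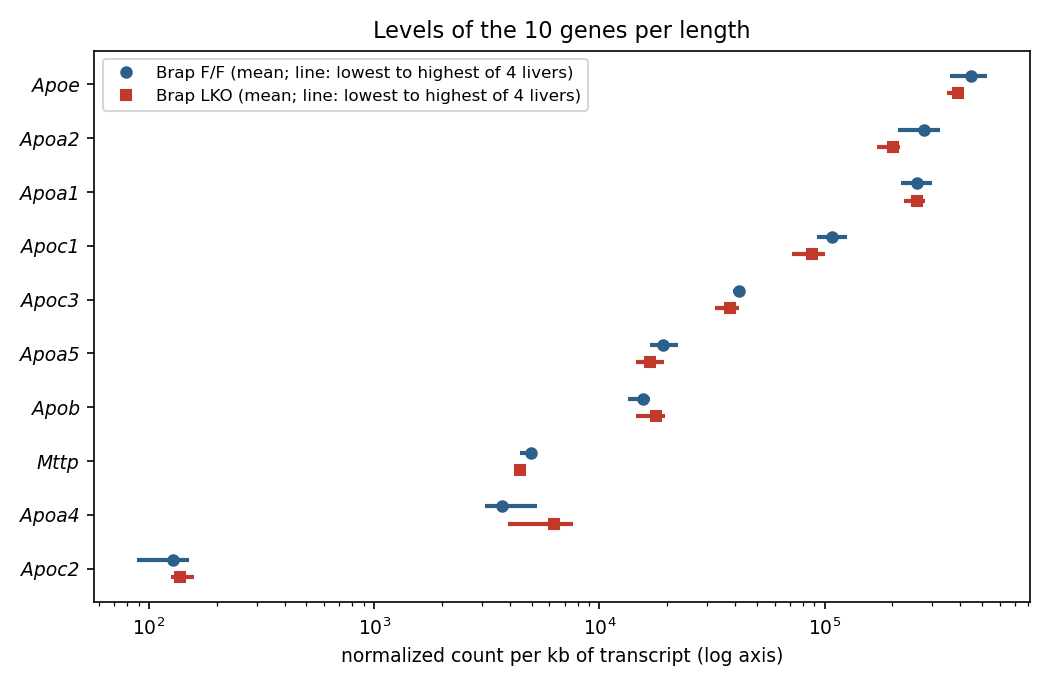
Normalized count per kilobase of the reference transcript (x axis, log scale) for the 10 genes, ordered by the mean of the Brap F/F livers, with the mean as a point and the lowest to highest of 4 livers as a line (blue, Brap F/F; red, Brap LKO). Apoe is highest and Apoc2 lowest in both groups, and the lines of both groups overlap in all 10 rows. Apoc2 shares most of its exon bases with another gene, which leaves its level uncertain.

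Apoa1, Apoc3, Apoa4 and Apoa5 lie side by side on chromosome 9. In mm10 (1-based), Apoa1 is at chr9:46228580-46230466 on the plus strand, Apoc3 at chr9:46232933-46235636 on the minus strand, Apoa4 at chr9:46240696-46243459 and Apoa5 at chr9:46268633-46271919, both on the plus strand. Apoc2 (chr7:19671579-19677941), Apoc1 (chr7:19689481-19692660) and Apoe (chr7:19696109-19699188) form a cluster on the minus strand of chromosome 7. Apoa2 (chr1:171225054-171226379, plus strand), Mttp (chr3:138089854-138144968, minus strand) and Apob (chr12:7977648-8016835, plus strand) lie alone. The promoters of 6 members are shown because the results below turn on genes of 1 cluster with unlike differences between the groups (Apoa4 beside Apoa1 and Apoa5), on Apob, and on a pair that was high in the same livers (Apoa2 and Apoe). The sequences are from RefSeq (GRCm38.p6, the assembly of mm10), 5′ to 3′ on the strand of the gene, and hold the 250 bases before the RefSeq start as far as they lie before the first base of the gene in GENCODE. Capitals mark matches to the motifs searched. RefSeq promoters were at hand for 8 of the 10 genes. Apoc1 and Apoc3 had none, and that of Mttp lay inside the gene as annotated in GENCODE and is not printed.
Apoa4 promoter, chr9:46240594-46240695: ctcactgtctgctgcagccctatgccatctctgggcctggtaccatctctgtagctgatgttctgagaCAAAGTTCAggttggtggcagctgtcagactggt
Apoa1 promoter, chr9:46228380-46228579: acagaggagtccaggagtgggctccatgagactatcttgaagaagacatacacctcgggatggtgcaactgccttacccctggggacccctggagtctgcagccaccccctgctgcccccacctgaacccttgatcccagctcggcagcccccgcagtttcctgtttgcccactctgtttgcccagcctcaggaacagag
Apoa5 promoter, chr9:46268383-46268632: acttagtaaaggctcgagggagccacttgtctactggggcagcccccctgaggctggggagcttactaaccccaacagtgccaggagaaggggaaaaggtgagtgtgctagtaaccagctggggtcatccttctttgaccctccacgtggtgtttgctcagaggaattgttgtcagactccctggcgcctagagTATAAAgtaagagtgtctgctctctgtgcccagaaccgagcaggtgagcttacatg
Apob promoter, chr12:7977427-7977647: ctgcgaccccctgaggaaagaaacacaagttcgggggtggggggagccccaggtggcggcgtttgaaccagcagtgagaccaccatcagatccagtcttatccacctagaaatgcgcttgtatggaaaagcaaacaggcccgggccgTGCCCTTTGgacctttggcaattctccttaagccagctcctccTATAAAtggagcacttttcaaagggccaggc
Apoa2 promoter, chr1:171224804-171225053: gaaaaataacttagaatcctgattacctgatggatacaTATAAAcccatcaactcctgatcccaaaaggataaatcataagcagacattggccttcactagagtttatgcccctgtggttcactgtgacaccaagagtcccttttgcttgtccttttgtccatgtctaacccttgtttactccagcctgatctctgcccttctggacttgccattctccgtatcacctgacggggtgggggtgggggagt
Apoe promoter, chr7:19699189-19699438: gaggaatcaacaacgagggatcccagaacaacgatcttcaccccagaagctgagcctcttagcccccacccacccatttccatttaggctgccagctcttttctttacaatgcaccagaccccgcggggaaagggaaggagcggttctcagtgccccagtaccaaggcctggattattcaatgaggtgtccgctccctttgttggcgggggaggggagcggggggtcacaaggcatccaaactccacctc

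Motifs were searched on both strands in the 250 bases before the RefSeq start. A site of the type bound by HNF4, a nuclear receptor that drives many hepatocyte genes, was searched as CAAAGNNCA and found in 2 of the 8 promoters, those of Apoa4 (positions -182 to -174 from the RefSeq start) and Apob (-103 to -95, on the reverse strand). It was present in 5.49% of the 32851 RefSeq promoters of that length. TATAAA, the letters of the TATA box, was found for 3 of the 8, Apoa2 (-212 to -207), Apoa5 (-56 to -51) and Apob (-60 to -55). It was present in 12.4% of all promoters. These letters alone do not show that a TATA box is used there. AGGTCA, the half-site of nuclear receptors, and GTTAAT, the half-site of HNF1, were found for Apoc2 (14% and 6.43% of all promoters), and GGGCGG, the GC box, for 0 of the 8 (32.7% of all). None of the motifs searched was found before Apoa1 or Apoe, which says only that these letters are not in those windows. Of the promoters that held the HNF4-type letters, 1 belongs to the member with the largest difference between the groups and 1 to a member whose confidence interval included 0. Whether the site bears on either difference was not tested.

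Apoa4 encodes apolipoprotein A-IV, a component of chylomicrons and HDL that mouse liver and intestine both make, and it had the largest difference of the 10. Its normalized count was 7141, 13845, 11252 and 13605 in Brap LKO replicates 1 to 4. In Brap F/F replicates 1 to 4 it was 9628, 5633, 5913 and 5662. Brap LKO replicates 2 to 4 lay above every Brap F/F liver, replicate 1 lay below Brap F/F replicate 1, and so the groups overlapped. The difference was 0.76 (95% confidence interval 0.23 to 1.30; limma adjusted p = 0.180), a fold of 1.70 (1.17 to 2.47). A two-sided exact permutation test over the 70 arrangements of 4 livers against 4 gave p = 0.0571, where the smallest p possible is 0.0286. DESeq2 on the recovered reads, which called 4.15% of the genes it tested (3.02% as higher), was the 1 alternative of 24 that put Apoa4 past the threshold (0.77, adjusted p = 0.0392), and edgeR on the same reads, which called 0.795% (0.703% as higher), gave an adjusted p of 0.176. Over the alternatives the difference ranged from 0.59, without Brap F/F replicates 2 and 3, to 0.98, without Brap LKO replicate 1, and the adjusted p from 0.0392 to 0.385.

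Reads on Apoa4 can be shared with genes on the opposite strand, since the use of strand in counting is not given in the sources used here. Of its 1815 exon bases, 634 lie under Gm47528 and 632 under Gm10680. These genes held 4.07 to 11.04 and 21.0 to 78.2 normalized counts over the 8 livers, below the level of Apoa4 in every liver. Their log2 fold changes were 0.59 and 0.50, and neither passed the threshold. Enterocytes, the other cells known for Apoa4, were checked with Fabp2, Vil1 and Lct, and 4 further markers of the list are not analysed here. Lct reached at most 4 reads in a liver. Fabp2, which these livers also held at 1037 to 2696, overlapped between the groups (log2 fold change -0.26). Vil1 (2.28 to 141), a gene of cholangiocytes too, was higher in each Brap LKO liver than in any Brap F/F liver. Groups did not overlap for 9.87% of all genes tested. The log2 fold change of Vil1, 2.51, missed the threshold, but passed it with DESeq2 and with the animal number series as a covariate. The part of such cells in the level of Apoa4 was not tested.

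Apoa4 also had the largest spread over the 8 livers (SD 0.56 on the log2 scale) of the 10 genes. The 5 tested genes whose centred log2 profile over the 8 livers differed least from it were Milr1 (root mean square difference 0.16), Endod1 (0.19), Gm44507 (0.19), Bcl11a (0.22) and Wnk2 (0.23), against a median of 0.57 over all genes tested. These genes are far less abundant than Apoa4, with group means between 3.93 normalized counts (Bcl11a, Brap F/F) and 158 (Endod1, Brap LKO).

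The neighbours of Apoa4 in the cluster did not share its values. Apoa1, the main protein of HDL and the activator of lecithin-cholesterol acyltransferase, was at 233188, 260848, 286507 and 288934 in Brap LKO replicates 1 to 4 and at 251849, 276972, 226795 and 309917 in Brap F/F replicates 1 to 4. The livers of both groups covered nearly the same range, with a difference of 0.0096 (-0.45 to 0.47; limma adjusted p = 0.985). The sign of so small a difference turned under several alternatives, among them 1 surrogate variable (-0.026). Apoc3, an inhibitor of lipoprotein lipase and of remnant uptake, was at 26292, 29646, 28629 and 23225 in Brap LKO and at 27725, 30432, 28799 and 31046 in Brap F/F. Only Brap LKO replicates 1 and 4 lay below the Brap F/F livers, and the difference was -0.14 (-0.37 to 0.10; limma adjusted p = 0.542), which turned to 0.024 after quantile normalization.

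Apoa5, an activator of triglyceride hydrolysis made mainly by the liver, was at 37919, 45375, 48437 and 36559 in Brap LKO replicates 1 to 4. In the Brap F/F livers it was at 42065, 52345, 55888 and 42369. Brap F/F replicates 2 and 3 were the highest and the other 6 livers mixed, with a difference of -0.19 (-0.52 to 0.13; limma adjusted p = 0.536). Without Brap F/F replicate 3 it was -0.12, and without both it was -0.015. Its antisense neighbour Gm47544, which covers 524 of its 2522 exon bases, had a log2 fold change of -0.63 (limma adjusted p = 0.272). Within each liver, the log2 ratio of Apoa4 to Apoa1 averaged -4.59 ± 0.345 (SD, n = 4) in Brap LKO and -5.34 ± 0.473 in Brap F/F. This difference of 0.76 does not depend on the scaling between livers, and by a two-sided exact permutation test it had p = 0.0571 (0.2 after adjustment over the 7 ratios examined). The ratios of Apoa5 and Apoc3 to Apoa1 differed by -0.20 (exact permutation p = 0.371, adjusted 0.457) and -0.14 (exact permutation p = 0.457, adjusted 0.457).

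**Figure D3:**
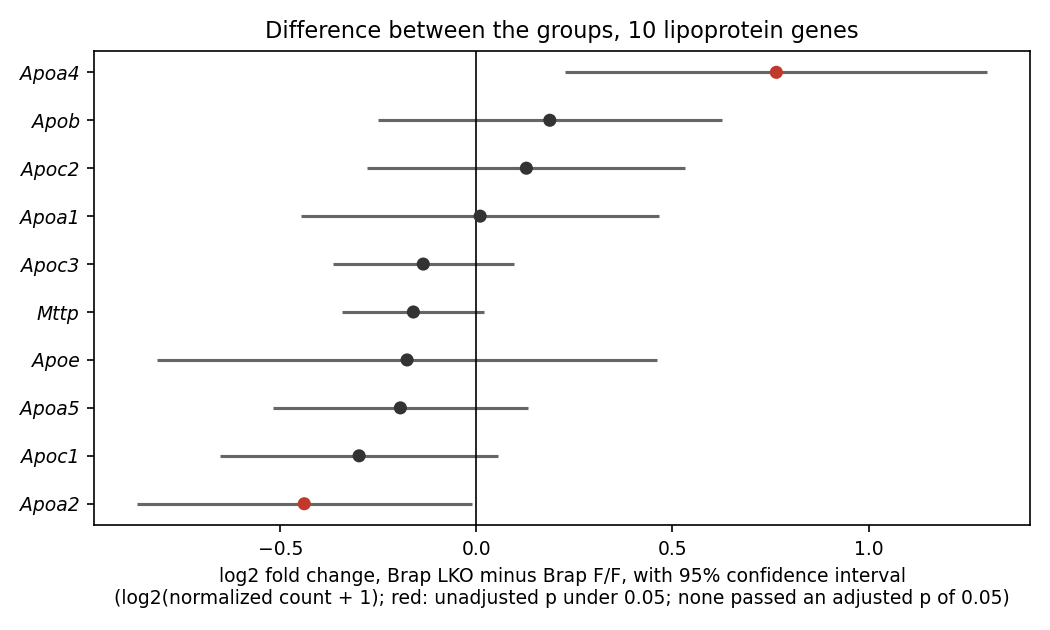
Log2 fold change (Brap LKO minus Brap F/F, x axis) of the 10 genes with the 95% confidence interval from limma, n = 4 livers per group. The intervals of Apoa4 (0.23 to 1.30) and Apoa2 (-0.87 to -0.012) leave out 0, both without passing the adjusted threshold, and the other 8 include it.

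Apoa2, the second protein of HDL, had the lowest log2 fold change of the 10. The Brap LKO livers were at 104755, 111768, 111566 and 88443 (replicates 1 to 4). The Brap F/F livers were at 124137, 169208, 168551 and 110173. Brap F/F replicates 2 and 3 stood well above the other 6 livers, and Brap F/F replicate 4 lay within the range of the Brap LKO livers. The difference was -0.44 (-0.87 to -0.012; limma adjusted p = 0.306), a fold of 0.738, and the exact permutation test gave p = 0.0857. Without Brap F/F replicates 2 and 3 it was -0.17. The ratio of Apoa2 to Apoa1 within each liver differed by -0.45 (exact permutation p = 0.143, adjusted 0.25), from -0.91 ± 0.456 in Brap F/F to -1.36 ± 0.246 in Brap LKO.

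In the chromosome 7 cluster, Apoe was at 569018, 579673, 556764 and 491624 in Brap LKO replicates 1 to 4 and at 550348, 711947, 742307 and 506659 in Brap F/F replicates 1 to 4. Brap F/F replicates 2 and 3 were again the highest livers, and replicates 1 and 4 lay among the Brap LKO livers. The difference of -0.18 (-0.81 to 0.46; limma adjusted p = 0.788) turned to 0.054 without those 2 livers. Macrophages make apolipoprotein E too, and of 14 macrophage markers 13 had a log2 fold change above 0 (median 0.29, 1 past the threshold), with summed levels of 8861 to 15560 in Brap LKO and 8626 to 12436 in Brap F/F. The part of these cells in the level of Apoe was not tested.

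Apoc1, which inhibits lipoprotein binding to receptors, was at 48208, 53147, 47410 and 37944 in the Brap LKO livers. The Brap F/F livers held 49313, 65321, 66716 and 49134. The order of the Brap F/F livers was that of Apoe in that replicates 2 and 3 were highest, and the difference was -0.30 (-0.65 to 0.055; limma adjusted p = 0.390). Without those 2 livers it was -0.087. The ratio of Apoc1 to Apoe within each liver, -3.56 ± 0.102 in Brap LKO and -3.44 ± 0.0528 in Brap F/F, was the least variable of the 7 ratios and differed by -0.12 (exact permutation p = 0.0857, adjusted 0.2).

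Apoc2, the activator of lipoprotein lipase, was at 115, 90.9, 96.1 and 96.7 in Brap LKO and at 105, 92.5, 64.1 and 109 in Brap F/F. The lowest liver was Brap F/F replicate 3, and the difference of 0.13 (-0.28 to 0.53; limma adjusted p = 0.754) turned to -0.0375 without it. This low level is uncertain, because 646 of the 813 exon bases of Apoc2 (79.5%) are shared on the same strand with Gm44805, a gene that spans Apoc4 and Apoc2 and is not analysed here, and a counter that drops or reassigns shared reads would leave Apoc2 with the reads of 167 bases. For the same reason the ratio of Apoc2 to Apoe (a difference of 0.30, exact permutation p = 0.4, adjusted 0.457) rests on part of the gene. Apoc4, of which 119 of 2537 exon bases (4.69%) are shared with Gm44805, held 4287 ± 305 in Brap LKO and 4702 ± 230 in Brap F/F.

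Apob encodes the structural protein of VLDL, with 1 copy per particle, and Mttp the large subunit of the transfer protein that lipidates it. Apob was at 264634, 202034, 273278 and 254061 in Brap LKO replicates 1 to 4 and at 233055, 186263, 228808 and 222381 in Brap F/F replicates 1 to 4. Brap LKO replicates 1, 3 and 4 lay above every Brap F/F liver and replicate 2 lay below all but 1 of them. The difference was 0.19 (-0.25 to 0.63; limma adjusted p = 0.662). Mttp was at 12936, 13652, 13917 and 14182 in Brap LKO and at 15361, 15911, 16261 and 13692 in the Brap F/F livers. Brap F/F replicates 1 to 3 lay above every Brap LKO liver and replicate 4 lay among them, with a difference of -0.16 (-0.34 to 0.021; limma adjusted p = 0.368), and of -0.086 without Brap F/F replicates 2 and 3.

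The 2 partners thus had opposite signs, and their ratio was taken within each liver. The log2 ratio of Mttp to Apob was -4.35, -3.89, -4.30 and -4.16 in Brap LKO replicates 1 to 4. In Brap F/F replicates 1 to 4 it was -3.92, -3.55, -3.81 and -4.02. The groups overlapped through Brap LKO replicate 2, and the difference of -0.35 had p = 0.0857 in the two-sided exact permutation test (adjusted 0.2). Leaving out 1 liver at a time it ranged from -0.44 to -0.26. Of 6206 exon bases of Mttp, 589 (9.49%) lie under opposite-strand genes, of which Trmt10a held 123 to 153 normalized counts.

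**Figure D4:**
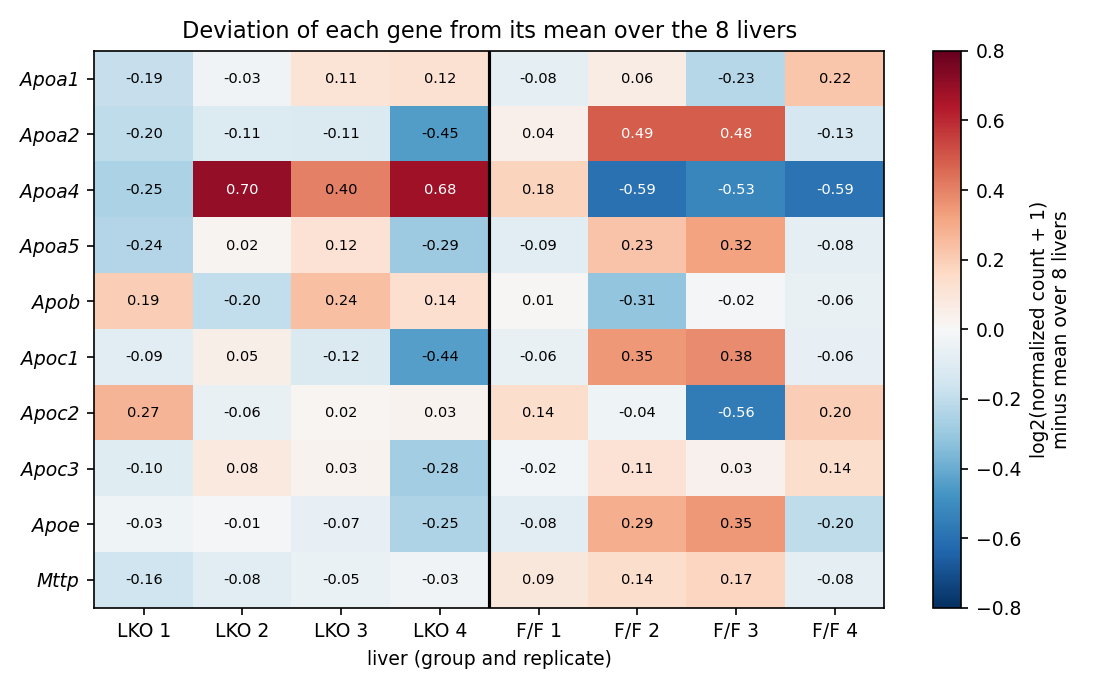
Deviation of log2(normalized count + 1) from the mean of the gene over the 8 livers (colour and printed value), with genes as rows and livers as columns (Brap LKO replicates 1 to 4, then Brap F/F replicates 1 to 4). Apoa2, Apoa5, Apoc1, Apoe and Mttp are highest in Brap F/F replicates 2 and 3, while Apoa4 is low in Brap F/F replicates 2 to 4 and high in Brap LKO replicates 2 to 4.

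The spread between the Brap F/F livers had a shape of its own. Brap F/F replicates 2 and 3 were the highest 2 of the 8 livers for 5 of the 10 genes (50%: Apoa2, Apoa5, Apoc1, Apoe and Mttp), while 2216 of the 15352 genes tested (14.4%) had that pattern. They were the lowest 2 livers for 0 of the 10, against 11.8% of all genes tested. Averaged over the 10 genes, the deviation of a liver from the mean of the 8 lay between -0.080 (Brap LKO replicate 1) and 0.072 (Brap F/F replicate 2). Without both livers the median of the 10 differences was -0.077, and Apoe (0.054), Apoa1 (-0.069) and Apoc2 (-0.11) changed sign. What sets these 2 livers apart was not tested.

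The proteins that carry a nascent VLDL out of the hepatocyte were read from a list of 18 partners, which holds the other subunit of the transfer protein (P4hb), the lipid-synthesis enzymes Dgat1 and Dgat2, the COPII coat and its cargo receptors, and others. All 18 were tested, 0 passed the threshold, 1 had a log2 fold change above 0 and 17 below 0, with a median of -0.21. Relative to the median of all genes the split was 1 above and 17 below with the deposited scaling and with the same total per liver (median -0.20 and -0.19), and 4 and 14 with quantile normalization (-0.085). Without Brap F/F replicates 2 and 3 it was 3 above and 15 below 0 (-0.10). All 12 hepatocyte markers also lay below 0, with a median of -0.34, and their part in the split was not tested.

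**Figure D5:**
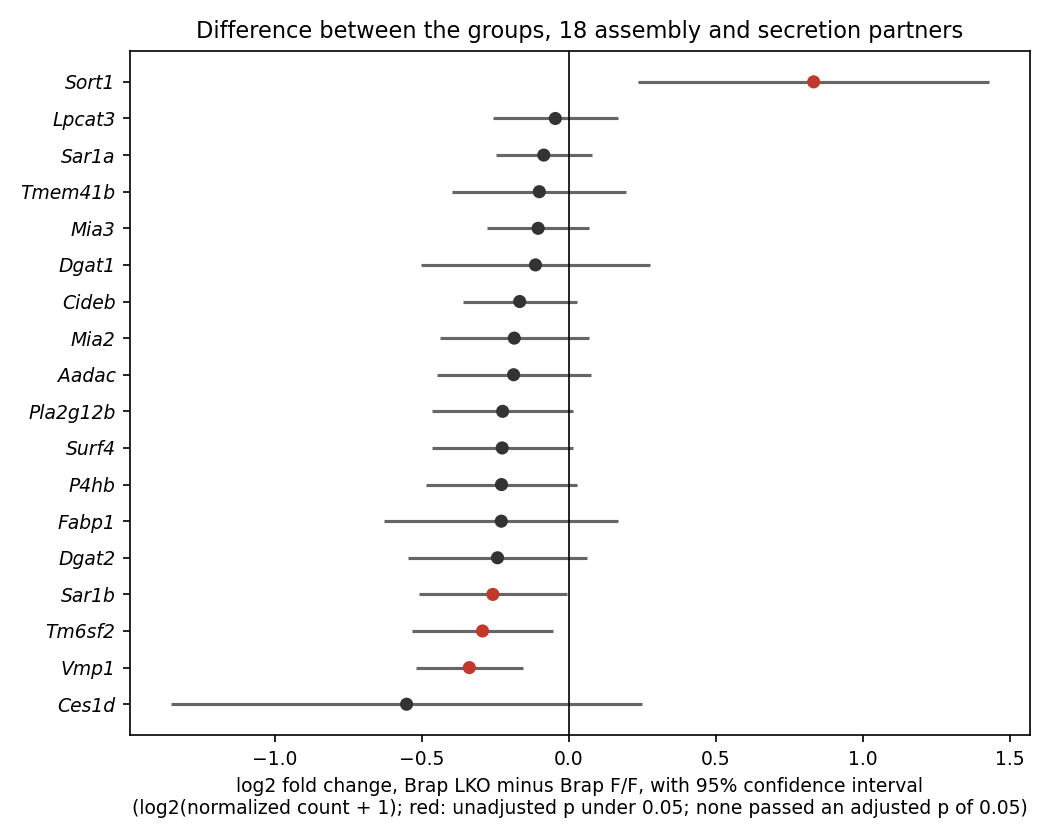
Log2 fold change (Brap LKO minus Brap F/F, x axis) of the 18 partners of lipoprotein assembly and secretion with the 95% confidence interval from limma, n = 4 livers per group. Sort1 lies to the right of 0 (0.83) and the other 17 to the left. The intervals of 4 genes leave out 0 (an unadjusted p under 0.05, which 15.8% of all genes tested had), none with an adjusted p under 0.05.

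Sort1, a sorting receptor that binds apolipoprotein B in the Golgi, was the exception in that list. It held 759, 977, 888 and 1378 normalized counts in Brap LKO replicates 1 to 4. In the Brap F/F livers it held 734, 333, 509 and 723. The groups did not overlap, by a small margin, and the difference of 0.83 (0.24 to 1.43) had a limma adjusted p of 0.185. It passed with 1 surrogate variable (0.67, adjusted p = 0.0321), the 1 alternative of 24 that changed the call. That fit called 490 genes higher and 245 lower of the 15352 tested, where the main fit called 102 and 16. Its surrogate variable was lowest in Brap F/F replicates 2 and 3 (-0.51 and -0.55, against -0.053 to 0.41 in the other livers). The lowest livers (333 and 509) were the Brap F/F livers that stood apart on the first principal component. Without both of them the difference was 0.42, the lowest over the alternatives.

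Vmp1, a scramblase of the endoplasmic reticulum needed for lipoprotein release, held 2012, 2269, 2299 and 2588 in Brap LKO and 2972, 2910, 2744 and 2924 in the Brap F/F livers. Each Brap LKO liver lay below each Brap F/F liver, with a difference of -0.34 (-0.52 to -0.16; limma adjusted p = 0.0964). It passed with DESeq2 (adjusted p = 0.0140) and with 1 surrogate variable (adjusted p = 0.0262). Fabp1, the liver fatty acid binding protein and the most abundant gene of the list, stood at -0.23 (limma adjusted p = 0.548). Tm6sf2 (-0.29) and Sar1b (-0.26), named after their values were seen, were the other genes with an unadjusted p under 0.05 (limma adjusted p = 0.240 and 0.308). Tm6sf2 acts in the lipidation of VLDL, and Sar1b is the COPII GTPase needed to export large lipoproteins.

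Rodent liver edits Apob mRNA to make the short form of the protein, and the 3 genes of the editing machinery were all tested. Apobec1, the deaminase, stood at 0.31 (-0.10 to 0.72; limma adjusted p = 0.436), its partner Rbm47 at -0.17 (adjusted p = 0.444) and A1cf at 0.017 (adjusted p = 0.975). The groups overlapped for each, and none passed the threshold. The edited and the unedited form cannot be told apart in gene counts.

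Beyond the 10, the list of other apolipoproteins held 13 genes, of which 12 were tested, with 5 above and 7 below 0, a median of -0.027 and 0 past the threshold. Clu, apolipoprotein J and the most abundant of them, stood at -0.025. Saa4, the constitutive serum amyloid A of HDL, was at 12406, 16218, 11989 and 16603 in Brap LKO replicates 1 to 4 and at 26761, 18732, 15663 and 26988 in Brap F/F replicates 1 to 4. The 2 highest livers were Brap F/F replicates 1 and 4, and the difference of -0.60 had a limma adjusted p of 0.197. Without Brap F/F replicates 2 and 3 it was -0.93 (adjusted p = 0.0385), with 1 surrogate variable -0.72 (adjusted p = 0.00509), and DESeq2 gave -0.62 (adjusted p = 0.0499). The first 2 of these fits are not separate, since the surrogate variable was lowest in Brap F/F replicates 2 and 3. Saa1 and Saa2, named after their values were seen, stood at 0.47 and 0.23 (limma adjusted p = 0.860 and 0.943). Within the Brap F/F livers they ran from 344 to 11160 and from 219 to 12082, lowest in replicates 2 and 3. Apol9a (1.21) and Apol9b (0.68, named after its values were seen) missed the threshold (adjusted p = 0.276 and 0.279), passed with 1 surrogate variable, and are closely similar copies whose reads the counting could split. Without Brap F/F replicates 2 and 3 the differences were 0.19 (Apol9a) and 0.12 (Apol9b). Apol9a was at 331 and 274 in Brap F/F replicates 2 and 3 and at 1193 to 1641 in the other 6 livers.

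Of the 13 genes for plasma lipases and particle remodelling, all tested, 4 lay above and 9 below 0 (median -0.089) and 0 passed the threshold. Lpl, lipoprotein lipase, which hydrolyses the triglyceride of VLDL in capillaries of other tissues and is low in adult hepatocytes, was at 683, 732, 602 and 883 in Brap LKO replicates 1 to 4. In the Brap F/F livers it was at 251, 345, 288 and 548. Every Brap LKO liver lay above every Brap F/F liver, and the difference of 1.07 (0.56 to 1.57), a fold of 2.10, had a limma adjusted p of 0.0709. It passed under 7 of 24 alternatives, among them DESeq2 (adjusted p = 0.00175) and the fit without Brap F/F replicate 4 (1.30, 0.0117), and its adjusted p ranged up to 0.199.

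Lpl is made by macrophages and mesenchymal cells, and the markers of such cells had values in the same direction. Of 12 stellate cell and fibroblast markers, 10 lay above 0 (median 0.71, 1 past the threshold), with summed levels of 8536 to 13340 in Brap LKO and 5588 to 9802 in Brap F/F, and the macrophage list is given above. Their part in the level of Lpl was not tested. The direction was not particular to these cells. All 7 tested cholangiocyte markers lay above 0 as well (median 0.96, 2 past the threshold). So did all 9 markers of the sinusoidal endothelium (median 0.17) and 8 of 9 lymphocyte markers (median 0.56), with 0 past the threshold in both lists.

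Lcat, which esterifies the cholesterol of HDL with apolipoprotein A-I as its cofactor, was at 10786, 11764, 11654 and 10864 in Brap LKO and at 14252, 14485, 12517 and 13112 in Brap F/F. The groups did not overlap, and the difference of -0.27 (-0.44 to -0.094) had a limma adjusted p of 0.153, and of 0.0170 in DESeq2. Angptl4 (-0.34) and Furin (-0.24), named after their values were seen, also had an unadjusted p under 0.05 (limma adjusted p = 0.181 and 0.217).

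Of 12 receptors and their regulators listed, 11 were tested, 6 lay above and 5 below 0 (median 0.076). Of these, 0 passed the threshold or had an unadjusted p under 0.05, which 15.8% of all genes tested had. Lrp1, the remnant receptor and the most abundant of the list, was at 0.12 (limma adjusted p = 0.658). Vldlr lay between 17.1 and 185 normalized counts within the Brap F/F livers, and its difference of -1.25 (-3.00 to 0.51; adjusted p = 0.462) turned to 0.36 without Brap F/F replicates 2 and 3. Of 5 genes of sterol export and esterification, 2 lay above and 3 below 0 (median -0.067) and 0 passed. An unadjusted p under 0.05 was found for 2 of them, Abcg1 and Soat2, against 15.8% of all genes tested. Abca1, the transporter that loads apolipoprotein A-I with cholesterol, was at 0.20 (adjusted p = 0.351), Abcg1, which passes cholesterol on to HDL, at 0.40 (adjusted p = 0.252) and Soat2, which makes the cholesteryl esters of VLDL, at -0.32 (adjusted p = 0.231).

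The transcription factors and coactivators known to act on these genes formed a list of 30, all tested. Of these, 10 lay above and 20 below 0 (median -0.035), and 0 passed the threshold. Hnf4a, the most abundant and the factor for which a site was searched above, was at 0.053 (-0.26 to 0.37; limma adjusted p = 0.875). Prox1, a corepressor of HNF4, was at 7989, 8814, 8415 and 9263 in Brap LKO replicates 1 to 4 and at 7834, 6691, 6140 and 6398 in Brap F/F replicates 1 to 4. The groups did not overlap, and the difference of 0.35 (0.15 to 0.56) had a limma adjusted p of 0.111. It passed with DESeq2 (0.0183) and with 1 surrogate variable (0.0444), and also with the same total per liver, which moves all genes upwards.

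Nr1h3, the liver X receptor that acts on Apoe, Apoc1 and Abca1, was at 2419, 2694, 2435 and 2627 in the Brap LKO livers. The Brap F/F livers held 3008, 3007, 2830 and 2832. The groups did not overlap, the difference was -0.20 (-0.34 to -0.058), and its limma adjusted p of 0.181 ranged from 0.0753 to 0.749 over the alternatives, none of which called it. Nr1d1 (0.83), Nr2f2 (0.27) and Usf2 (-0.25), named after their values were seen, were the others with an unadjusted p under 0.05 (limma adjusted p = 0.304, 0.298 and 0.282).

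Genes within 50 kb of a member were read from the same fit. Of 26 in the table, 20 were tested, 6 lay above and 14 below 0 (median -0.073), and 0 passed the threshold, with a smallest limma adjusted p of 0.272. Those with an unadjusted p under 0.05 were Gm47544, given above, and Relb (0.63; limma adjusted p = 0.300), both named after their values were seen.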

How the data were processed

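RNA from the livers of 8 mice (Brap LKO, n = 4; Brap F/F, n = 4) was analysed, grouped as in the labels. The authors extracted RNA with TRIzol and a column kit, made mRNA libraries (NuGEN Universal Plus) read from a single end for 50 bases, and, per the labels' processing notes, used FastQC, STAR 2.6.0c, mm10 and DESeq2. The counting tool, annotation and use of strand are not given in the sources used here. The deposited signal is the count of reads per gene over the DESeq2 size factor of the liver (24451 genes, 187 without a symbol). All values (100%) were whole multiples, within 0.001, of what 1 read is worth, so reads were recovered. Depth was 26280884 to 33313914 reads per liver, and 0 columns were left out. The authors' own comparison (mean, log2 fold change, its error, fold change, p and adjusted p) was not used.

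Log2(normalized count + 1) was fitted with limma 3.58.1 in R 4.3.3 (lmFit, eBayes with trend, no covariates) for the 15352 genes with a mean of at least 5. Genes with a Benjamini-Hochberg adjusted p under 0.05 passed the threshold. The deposited values are normalized counts, so limma was set as the main test, although the recovered reads also allow a count test. DESeq2 1.42.0, the authors' test, and edgeR 4.0.16 (quasi-likelihood) on the recovered reads were alternatives. DESeq2 called 4.15% of the genes it tested, against 0.769% with limma, so the main test called fewer genes than the authors' method. The fit was tested on simulated data. For single values, exact permutation tests (two-sided) used all 70 arrangements. Gene positions and overlaps are from GENCODE M21, where 24430 genes were found. Other settings were pseudocounts of 0.5 and 5, a minimum mean of 20 or no filter, TMM, quantile normalization, the same total, no trend, robust eBayes, arrayWeights, a replicate block, the animal number series, 1 surrogate variable (sva 3.50.0), and leaving out each liver. Leaving out Brap F/F replicates 2 and 3 together was added after the data were seen. That fit keeps only Brap F/F replicates 1 and 4, which stood apart on the second principal component, and so is no cleaner comparison.

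The members and gene lists were chosen with earlier results of these data known. Named genes are the members, in each wider list the most abundant gene and the 2 with the smallest unadjusted p, the 5 genes most like the member with the largest SD, and Brap. Others are said to have been named after their values were seen. Some genes that the rule names are not reported here.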

Additional observations from a re-analysis of the deposited data

Results flagged for a closer look

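Among the 4 Brap F/F livers, Apoa4 in replicate 1 (9628 normalized counts) stood apart from the next highest liver (5913), with a gap of 0.930 of the whole range of the group. Replicate 1 was the only Brap F/F liver of the lower animal number series, and the part of the series in this value was not tested. With the series as a covariate the difference of Apoa4 was 0.68. Among the 4 Brap LKO livers, Abcg1 in replicate 1 (338.8) stood apart from the next highest (241.8), with a gap of 0.874 of the range. Of 98 groups of 4 livers examined for the genes and ratios named, these 2 stood out, where chance marks about 1 group in 20 (4.9 of 98). Neither changes a call: without Brap F/F replicate 1 the difference of Apoa4 was 0.95 (limma adjusted p = 0.105), and Abcg1 without Brap LKO replicate 1 stayed above 0.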

How the results depend on the processing

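The 10 members gave 240 log2 fold changes under 24 other settings, of which 227 kept their direction and their side of the threshold, 12 turned sign and 1 (Apoa4, DESeq2, 0.77) passed it, so that members past the threshold numbered 1 with DESeq2. Of the members, 6 never turned sign. Quantile normalization gave Apoc2 -0.023, Apoc3 0.024 and a median of the members of -0.001. The same total per liver, which moved all genes alike (their median by 0.16), gave Apoc3 0.022 and a median of 0.0095, but relative to the median of all genes these stood at -0.12 and -0.14, where the deposited scaling gave -0.13 and -0.14. With 1 surrogate variable Apoa1 was -0.026. Leaving out Brap F/F replicates 2 and 3 together gave Apoa1 -0.069, Apoc2 -0.11, Apoe 0.054, a median of -0.077, Lrp1 -0.0099, Rbm47 0.003 and Vldlr 0.36. Leaving out 1 liver at a time, Apoa1 ranged from -0.065 to 0.086, Apoc2 from -0.0375 to 0.21, A1cf from -0.19 to 0.18, Clu from -0.091 to 0.061 and Hnf4a from -0.025 to 0.15. A1cf was -0.070 with arrayWeights, -0.064 with the animal number series, -0.0155 with edgeR and -0.027 with DESeq2. Clu was 0.11 with quantile normalization, 0.13 with the same total and 0.030 with arrayWeights, and Hnf4a -0.054 with arrayWeights. The cause of these changes was not tested.

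Over all genes, 102 were higher and 16 lower in Brap LKO. Those higher numbered 62 with quantile normalization, 459 with the same total, 185 with arrayWeights, 490 with 1 surrogate variable and 455 with DESeq2, and from 11 (without Brap LKO replicate 1) to 178 (without Brap F/F replicate 4) leaving out 1 liver. Those lower numbered 9 with a minimum mean of 20, 39 with arrayWeights, 245 with 1 surrogate variable, 170 with DESeq2, 47 without Brap F/F replicates 2 and 3, and from 4 to 54 leaving out 1 liver. The replicate numbers were checked as pairs: deviations of same-numbered livers correlated at -0.13, 0.003, 0.20 and 0.29. Brap LKO replicates 2, 3 and 4 correlated best with the Brap F/F liver of their own number, replicates 2 and 3 by a small margin. Brap LKO replicate 1 correlated best with Brap F/F replicate 3 (0.16). So few correlations cannot settle whether the numbers pair the livers. With the replicate number as a block 80 genes were higher, 15 were lower, Lpl passed (adjusted p = 0.0237) and 0 members did. The members' order per kilobase changed for 2 of them with the union of exons. With 4 livers a group, the limma intervals above bound what could be seen. They rest on the spread between livers after eBayes draws it towards a variance trend over all genes. An interval can thus be wider or narrower than the livers of that gene alone would give.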
